A study of Mus musculus with 4 samples.

Results

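The Krüppel-like factor (KLF) genes were followed at 10 loci, Klf2, Klf3, Klf4, Klf5, Klf6, Klf7, Klf9, Klf10, Klf12 and Klf13, in an ATAC-seq comparison of mouse periosteal stem/progenitor cells. ATAC-seq reads open chromatin through the insertion of adapters by a transposase. The loci were represented by every peak that the authors' annotation assigned to one of these genes (32 of 15221 annotated peaks) and by every consensus peak within 50 kb of one of their start sites (89 of 85925), which together made 111 different peaks. The knockout group was Ctsk-iCre;Plagl1fl/fl, in which a Cre under control of the cathepsin K gene meets a floxed Plagl1, and the control group was Plagl1fl/fl without Cre, with 2 libraries in each. Both genotypes therefore carried the floxed allele, and an effect of the Cre itself cannot be told apart from one of the Plagl1 deletion. All cells came from the angle of the mandible of mice aged 8 weeks and had spent 3 days in osteogenic medium with 50 µg/ml ascorbic acid, 5 mM β-glycerophosphate and dexamethasone. No label says that 2 libraries of a genotype are separate animals and the p-values cover no more than these libraries.

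KLF proteins are transcription factors that bind GC-rich and CACCC-type DNA through C2H2 zinc fingers at their C-terminal end. They are commonly sorted into a group that mainly activates transcription (here Klf2, Klf4, Klf5, Klf6 and Klf7), a group that represses through the CtBP corepressors (Klf3 and Klf12) and a group that recruits the SIN3A corepressor (Klf9, Klf10 and Klf13). Plagl1 encodes another zinc finger transcription factor, and Klf4 is named with it in the title of the study.

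The tables gave 1 log2 fold change, 1 mean signal and 1 p-value per peak, so values per library and the depth of each library are not analysed here. A positive fold is read as higher accessibility in the knockout. The files call such peaks gains without naming the genotype that gained, so a ratio taken the other way would swap the words gained and lost throughout. A peak was called at a deposited edgeR false discovery rate (FDR) under 0.05. The standard error of each fold is the one implied by the deposited F statistic. It followed signal almost alone (regressed on log2 CPM, its log2 fell with slope -0.52, r squared 0.997, over 81527 peaks), so the p-values reflect mostly a noise that depends on signal, and the peak's own spread between libraries barely entered the calls. With an assumed coefficient of variation of 0.1 between libraries, 0 of the 111 KLF peaks and 0.064% of all consensus peaks would pass.

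Most KLF start sites lay in GC-rich promoters. RefSeq (build GRCm38.p6) held a promoter, from 250 bases before the start to 50 after it, for 8 of the 10 genes, all but Klf5 and Klf10. Those of Klf4 (chr4:55532426-55532725, minus strand), Klf3 (chr5:64803271-64803570, plus strand), Klf9 (chr19:23140976-23141275, plus strand) and Klf12 (chr14:100149747-100150046, minus strand) are shown because they span the range from many GC boxes to none, and because the last of them belongs to the member with no peak over its start site. Capitals mark the GC box GGGCGG and the CACCC box CCACCC on either strand, the 2 motifs among those searched that occurred; matches of GGGCGG may overlap each other.

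Klf4: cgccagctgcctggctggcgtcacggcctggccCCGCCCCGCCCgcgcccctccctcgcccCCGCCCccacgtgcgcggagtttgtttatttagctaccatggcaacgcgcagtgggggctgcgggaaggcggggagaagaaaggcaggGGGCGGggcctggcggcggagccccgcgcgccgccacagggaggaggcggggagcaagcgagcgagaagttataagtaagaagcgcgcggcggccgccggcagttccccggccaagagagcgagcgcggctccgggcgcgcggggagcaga

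Klf3: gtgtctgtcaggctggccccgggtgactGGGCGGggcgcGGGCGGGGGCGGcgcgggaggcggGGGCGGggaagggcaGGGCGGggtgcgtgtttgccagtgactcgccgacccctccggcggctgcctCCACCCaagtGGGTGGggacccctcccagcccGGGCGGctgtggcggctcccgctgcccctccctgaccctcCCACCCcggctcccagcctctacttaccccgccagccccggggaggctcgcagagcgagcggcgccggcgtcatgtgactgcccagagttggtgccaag

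Klf9: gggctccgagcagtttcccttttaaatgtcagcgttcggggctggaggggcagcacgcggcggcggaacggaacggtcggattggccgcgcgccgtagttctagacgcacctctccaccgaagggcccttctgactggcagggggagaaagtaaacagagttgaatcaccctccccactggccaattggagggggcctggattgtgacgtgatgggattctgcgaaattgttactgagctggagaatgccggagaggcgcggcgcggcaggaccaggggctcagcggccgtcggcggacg

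Klf12: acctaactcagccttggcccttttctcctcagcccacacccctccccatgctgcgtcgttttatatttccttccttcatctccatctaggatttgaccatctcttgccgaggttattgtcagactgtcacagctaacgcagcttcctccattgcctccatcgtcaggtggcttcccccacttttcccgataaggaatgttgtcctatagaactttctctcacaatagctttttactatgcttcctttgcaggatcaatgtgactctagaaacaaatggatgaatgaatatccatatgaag

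The GC box was present in 6 of the 8 KLF promoters, against 35.7% of all 32851 promoters in the RefSeq table, with 6 sites in Klf3, 4 in Klf4, 3 in Klf13, 2 in Klf2 and 1 each in Klf6 and Klf7. The CACCC box was present in 4 of 8, namely Klf2, Klf3, Klf7 and Klf13, against 31.5% of all promoters, and in Klf13 it overlapped a GC box. The element GGGGCCCC, a form of the G/C-rich sequence that PLAGL1 is known to bind, was in 0 of 8 and in 1.08% of all promoters. The Klf4 promoter had 40 CpG dinucleotides and 74.3% G and C, the Klf9 promoter 28 and 63.3%, and the Klf12 promoter 6 and 45.7%, where the median promoter had 7 and 52.7%. A match describes the letters of these windows and says nothing about occupancy.

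Accessibility over the KLF start sites did not pass the test at any member. Of the 9 start sites that lay inside a consensus peak, none was called (0 by the edgeR FDR, 2 at an unadjusted p under 0.05), and Klf12 had no peak over its start site. Klf5 is among the 9 because, of 2 possible sites, the one inside a peak was used. These 9 peaks were strong, with mean log2 CPM from 5.02 to 7.61, and 9.57% of all consensus peaks with a log2 CPM of at least 5 were called. Their log2 fold changes lay between -0.12 and 0.10 (the authors' deposited table), with standard errors from 0.0333 to 0.0773.

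**Figure D1:**
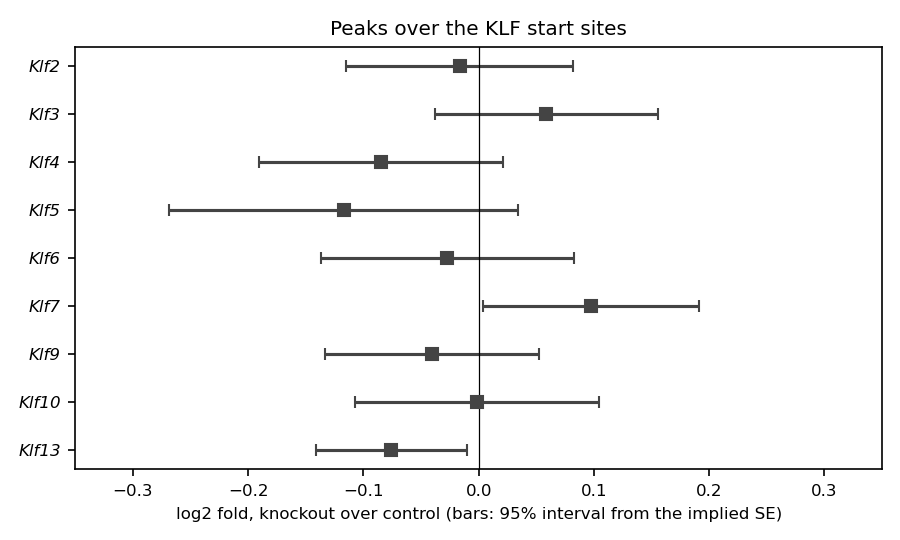
Log2 fold change of the knockout over the control (x axis) for the consensus peak over the start site of each KLF gene (y axis), with 95% intervals from the implied standard errors. All 9 values lie between -0.12 and 0.10, and the interval excludes 0 at Klf7 on the upper side and at Klf13 on the lower side, both short of the FDR.

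Klf4, which encodes a factor known from pluripotency and epithelial differentiation, had a start site peak (chr4:55532185-55533350, mm39, 68.4 CPM) with a log2 fold change of -0.085 (SE 0.0539, edgeR FDR 0.387) (the authors' deposited table). The 95% interval of this fold was 0.876 to 1.01-fold. Klf5, a factor of proliferating epithelial and mesenchymal cells, had the lowest value of the 9, a log2 fold change of -0.12 (SE 0.0773, edgeR FDR 0.410) (the authors' deposited table) at chr14:99535703-99536840. Klf7, known for its part in neuronal development, had the highest, 0.10 (SE 0.0476, edgeR FDR 0.226) (the authors' deposited table) at chr1:64160348-64161606, with an interval of 1.00 to 1.14-fold. At Klf13, a factor known from lymphocyte gene regulation, the peak (chr7:63587031-63589641) was the widest and strongest of the 9 at 195 CPM, and its log2 fold change was -0.076 (SE 0.0333, edgeR FDR 0.167) (the authors' deposited table). The endothelial and lymphocyte factor gene Klf2 (-0.017, FDR 0.895), the repressor gene Klf3 (0.059, FDR 0.539) and the immediate early gene Klf6 (-0.027, FDR 0.839) stayed short of the edgeR threshold (the authors' deposited table). So did the glucocorticoid-inducible Klf9 (-0.040, FDR 0.689) and the TGF-beta-inducible Klf10 (-0.0018, FDR 0.990) (the authors' deposited table). Both groups were cultured with dexamethasone, a glucocorticoid, so its effect on Klf9 could not be tested. The Klf9 start site peak had 89.3 CPM, near the 87.8 CPM of Klf7 and below the 195 CPM of Klf13.

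Away from the start sites, single peaks passed in both directions. Of the 89 consensus peaks within 50 kb of a KLF start site, 5 (5.62%) were gained and 2 (2.25%) were lost by the edgeR FDR, where 3.14% and 2.48% of all 85925 consensus peaks were. Together 7.87% were called, against 5.62% of all, and 22.5% had an unadjusted p under 0.05, against 19.8% of all. The KLF loci were thus close to the background in the share of called peaks. Their median log2 fold change was 0.034 (quartiles -0.076 and 0.21), against 0.0024 (quartiles -0.15 and 0.21) for all peaks, and 52 of 89 folds (58.4%) were above 0, against 50.4%. The 7 called peaks belonged to 6 genes: Klf6 had 2, and Klf2, Klf3, Klf5, Klf7 and Klf9 had 1 each, while Klf4 (11 peaks), Klf10 (13 peaks), Klf12 (1 peak) and Klf13 (11 peaks) had 0. At an unadjusted p under 0.05 these 4 genes had 0, 2, 0 and 3 peaks.

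**Figure D2:**
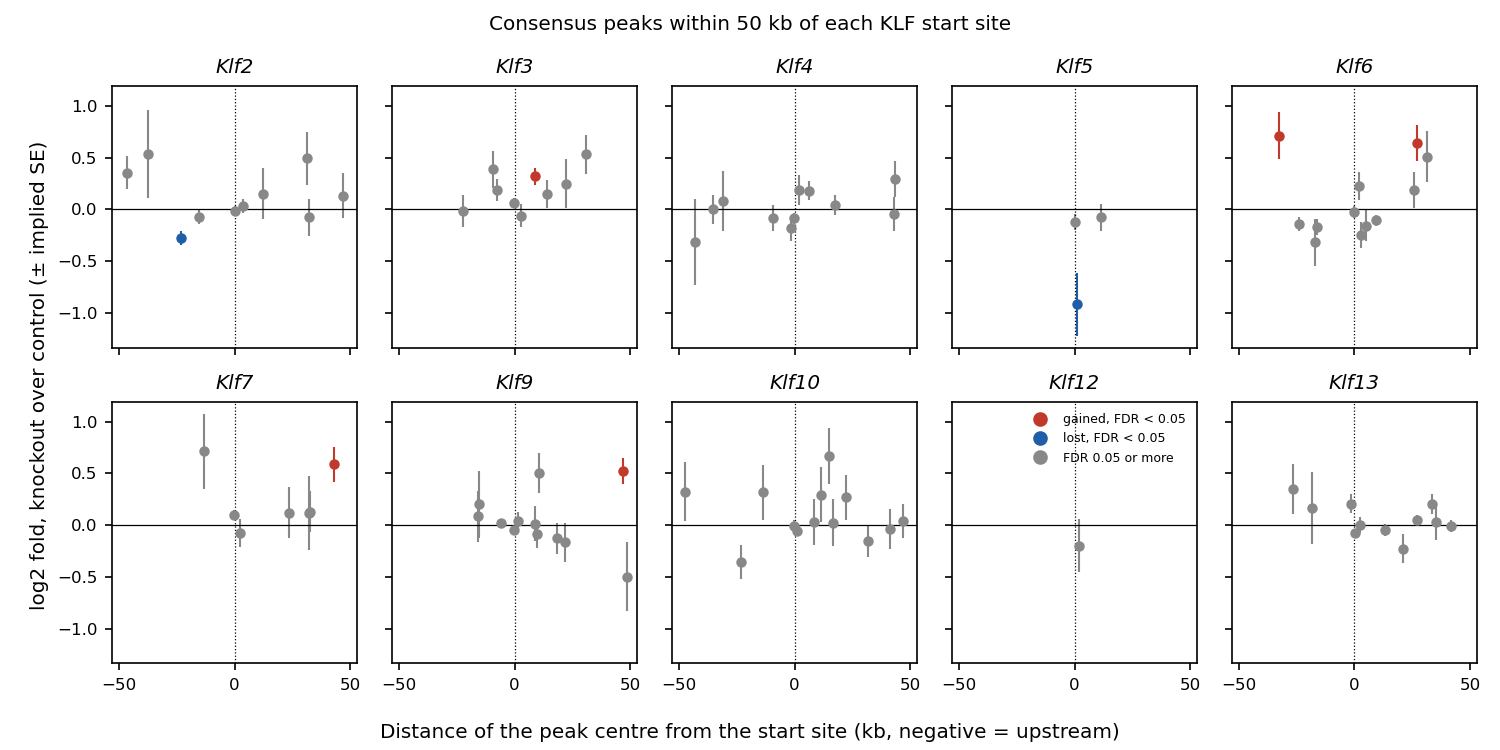
Log2 fold change of the knockout over the control with the implied standard error (y axis) against distance from the start site in kb (x axis), for the 89 consensus peaks within 50 kb of the 10 KLF start sites. Called peaks are coloured; 5 are gained and 2 are lost, and the peaks at distance 0 lie near a fold of 0.

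The activator genes held 43 of the 89 peaks near a start site, of which 3 were gained and 2 lost. These calls were 11.6% of the 43, against 5.62% of all consensus peaks, and a difference between the groups of genes was not tested. Klf5 lost accessibility in its intron 1 of 3 (chr14:99537255-99537493, 1247 bp from the start site): this narrow and weak peak (2.55 CPM) fell to 0.531-fold, a log2 fold change of -0.91 (SE 0.303, edgeR FDR 0.0485) (the authors' deposited table). It lies just beyond the end of the Klf5 start site peak, which held 32.4 CPM and did not pass. Klf2 lost accessibility at a strong upstream peak (chr8:73049180-73050090, -23271 bp, 43.2 CPM), where the log2 fold change was -0.28 (SE 0.0679, edgeR FDR 0.00418) (the authors' deposited table). Of all consensus peaks with a log2 CPM of at least 5, 7.39% were lost and 2.18% gained. With the trend of fold along signal subtracted, the Klf2 peak had -0.21 and passed narrowly (chi-square, adjusted p 0.0407). Klf6 had a gained peak on either side, and with the trend of fold along signal subtracted the upstream one no longer passed (log2 fold change 0.65, adjusted p 0.0702). The downstream peak (chr13:5938185-5939292, 27250 bp) lies on a GA-rich low-complexity stretch and had a log2 fold change of 0.64 (SE 0.173, edgeR FDR 0.0104) (the authors' deposited table). The upstream peak (chr13:5878537-5879025, -32707 bp) had 0.71 (SE 0.228, edgeR FDR 0.0391) (the authors' deposited table) and was assigned to the noncoding gene 1700016G22Rik. At the Klf6 locus the strong peaks closer to the gene had folds below 0, as at -23916 bp (-0.14, edgeR FDR 0.206) and 9406 bp (-0.11, FDR 0.278) (the authors' deposited table), neither of them called. Such folds were common: of all consensus peaks with a log2 CPM of at least 5, only 26.1% had a fold above 0. With the trend subtracted the folds at -23916 and 9406 bp were -0.084 and -0.051. Klf7 gained accessibility inside its own intron 2 of 3 (chr1:64117490-64117857, 42874 bp downstream of the start), with a log2 fold change of 0.59 (SE 0.170, edgeR FDR 0.0195) (the authors' deposited table); the annotation assigned this peak to the microRNA gene Mir6899.

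Among the corepressor-binding members, 1 of the 10 peaks near Klf3 and Klf12 (10%) and 1 of the 36 near Klf9, Klf10 and Klf13 (2.78%) passed. Of all consensus peaks 5.62% did, and these shares rest on 1 call each. Klf3, the CtBP-binding factor, gained accessibility in a wide peak of 1841 bp in intron 1 of 6 (chr5:64968593-64970433, 8649 bp from the start site, 28.9 CPM), with a log2 fold change of 0.32 (SE 0.0808, edgeR FDR 0.00543) (the authors' deposited table). Of the 9 Klf3 peaks within 50 kb, 7 had a fold above 0, and their median log2 fold change of 0.18 was the highest of the 10 genes (the authors' deposited table). Klf12, the other CtBP-binding gene, had 1 peak within 50 kb (chr14:100384991-100385407, 2033 bp from the start site, 3.20 CPM) with a log2 fold change of -0.20 (SE 0.254, edgeR FDR 0.723) (the authors' deposited table). The called peak of the SIN3A-binding genes lay 46733 bp downstream of the Klf9 start site (chr19:23165140-23165506), had a log2 fold change of 0.53 (SE 0.125, edgeR FDR 0.00285) (the authors' deposited table), and was assigned to the microRNA gene Mir1192. A second Klf9 peak, in its intron 1 of 1 (chr19:23129068-23129407), had 0.50 (SE 0.190, edgeR FDR 0.0928) (the authors' deposited table).

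Assignment to the nearest start site hid part of these loci. Of the 16 annotated peaks within 50 kb of a KLF start site, 6 were assigned to another gene, and 3 of these 6 were called, all gained. Annotated peaks all had an unadjusted p under 0.05, and over all genes 30.6% of them were called and 17.6% gained. With the trend of fold along signal subtracted, 2 of the 6 passed. In 3 of the 6 the host intron nevertheless belongs to a KLF transcript, at Klf7, Klf9 and Klf13.

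Assigned peaks reached much farther from the genes. Annotation required a p under 0.05 together with a log2 fold change of 0.2 or more in size, so the call of 10 of the 32 assigned peaks (31.25%) is read against the 30.6% of all annotated peaks that passed, and the shares are close. Of the 32, 6 (18.75%) were gained and 4 (12.5%) were lost, where 17.6% and 13.1% of annotated peaks were, by the edgeR FDR. The peaks were intergenic in 30 of 32 cases, 22 lay beyond 50 kb, and 7 overlapped a repeat.

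**Figure D3:**
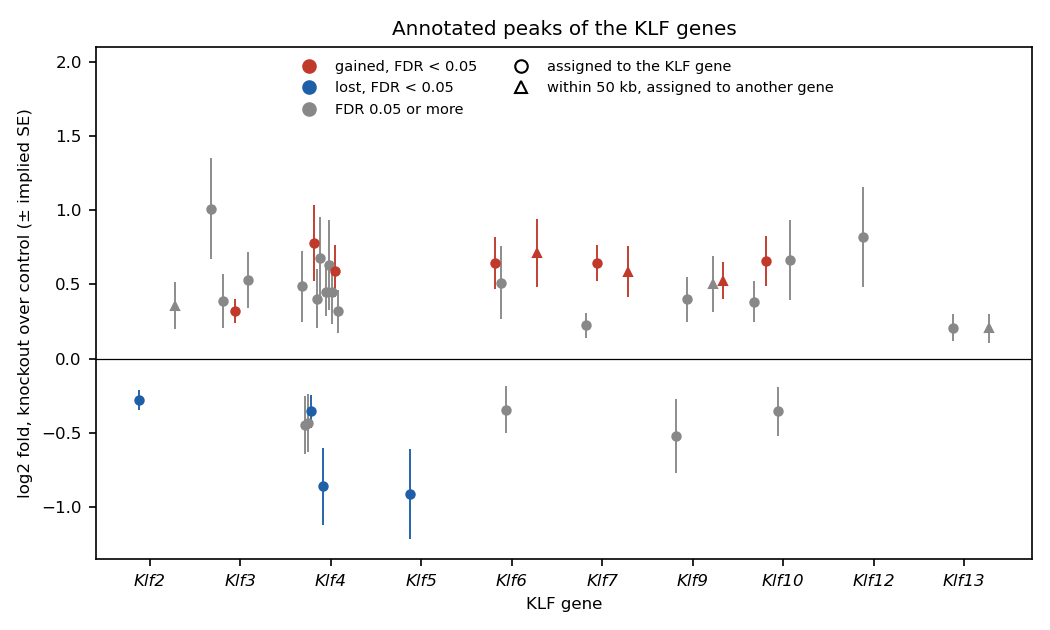
Log2 fold change of the knockout over the control with the implied standard error (y axis) for each annotated peak of the 10 KLF genes (x axis). Circles are the 32 peaks assigned to a KLF gene and triangles the 6 peaks within 50 kb of a KLF start site that were assigned to another gene; Klf4 has 13 circles on both sides of 0.

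The smallest FDR at any KLF locus was far upstream of Klf7. This peak (chr1:64334313-64335070, -174143 bp, 12.9 CPM) lies on an L1 element and rose 1.57-fold, a log2 fold change of 0.65 (SE 0.121, edgeR FDR 5.28e-05) (the authors' deposited table). Its neighbour at -180149 bp had 0.22 (SE 0.0835, edgeR FDR 0.0879) (the authors' deposited table). Klf10 gained accessibility at -71151 bp (chr15:38372003-38372209), with a log2 fold change of 0.66 (SE 0.167, edgeR FDR 0.00612) (the authors' deposited table). The peak beside it, on a simple repeat at -73346 bp, had 0.39 (SE 0.140, edgeR FDR 0.0778) (the authors' deposited table), also above 0. The assigned Klf10 peaks nearest to the gene were not called. At 14085 bp from a second start site the log2 fold change was 0.67 (edgeR FDR 0.123), and at -23376 bp it was -0.35 (edgeR FDR 0.201) (the authors' deposited table). Klf3 had 3 other assigned peaks, all with a fold above 0 and none called; the largest log2 fold change of all 32 was among them, 1.01 (SE 0.342, edgeR FDR 0.0535) (the authors' deposited table) at -51518 bp. The single Klf12 peak at -111106 bp (0.82, edgeR FDR 0.132), the single Klf13 peak at -1583 bp (0.21, FDR 0.149) and the Klf9 peaks at -86595 bp (0.40, FDR 0.0910) and -107697 bp (-0.52, FDR 0.209) did not pass (the authors' deposited table).

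Klf4 stood out in number of assigned peaks, with 13, where only 10 of the 8173 annotated genes had as many or more and the median gene had 1. They fill a long interval without another annotated start site. Between the midpoints to the neighbouring start sites solved from the table, those of Gm12505 and Actl7b (chr4:55475658-56136950, 661 kb), there were 53 consensus peaks. Of these, 4 (7.55%) were called by the edgeR FDR, against 5.62% of all consensus peaks, 2 gained and 2 lost. Unadjusted p-values under 0.05 were found in 13 of the 53 (24.5%, against 19.8% of all peaks), and 29 of 53 folds were above 0, with a median log2 fold change of 0.046. The called peaks lay between -198012 and -362030 bp from the start site and alternated: gained at -198012 bp (log2 fold change 0.59), lost at -269910 bp (-0.86), gained at -306195 bp (0.78, on a MaLR repeat) and lost at -362030 bp (-0.36) (the authors' deposited table). The order of gains and losses rests on 4 calls, of which 2, at -306195 and -362030 bp, no longer passed with the trend of fold along signal subtracted (adjusted p 0.0914 and 0.0726), and 0 passed an FDR under 0.01. The assigned peak nearest to the Klf4 start site, at -91151 bp, had a log2 fold change of 0.32 (SE 0.145, edgeR FDR 0.184) (the authors' deposited table). The 11 peaks within 50 kb of the Klf4 start site had log2 fold changes from -0.32 to 0.29 (the authors' deposited table), and the lowest unadjusted p among them was 0.0505, at a peak 6137 bp from the start site (0.18, SE 0.0919).

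**Figure D4:**
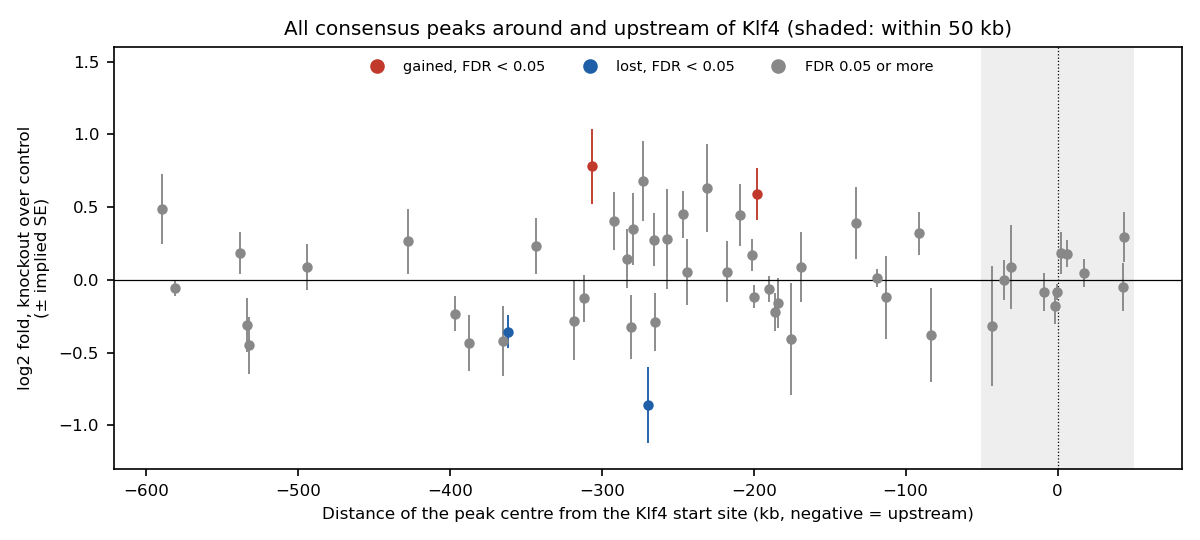
Log2 fold change of the knockout over the control with the implied standard error (y axis) against distance from the Klf4 start site in kb (x axis) for the 53 consensus peaks of the interval around and upstream of Klf4. The 4 called peaks, 2 gained and 2 lost, lie between -198012 and -362030 bp, and none of the 11 peaks in the shaded 50 kb window passed.

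Signal and fold were related across all peaks, with a median log2 fold change of 0.12 in the weakest 10% and -0.057 in the strongest 10%. At the KLF loci the 9 start site peaks had a median log2 CPM of 6.31 and a median log2 fold change of -0.027, while all peaks with a log2 CPM of at least 5 had a median of -0.056. The 56 peaks that were 10 to 50 kb away and not over a start site had a median log2 CPM of 2.45 and a median log2 fold change of 0.12, with 4 gained and 1 lost. After subtraction of the running median of fold along signal, 4.72% of all consensus peaks passed. Of the 89 KLF peaks within 50 kb, 7 passed, as many as before. Of all 111 KLF peaks 12 passed, against 13 before. This count cannot be set against the 4.72%, because the assigned peaks among the 111 had to have a p under 0.05. The 3 calls that ended were those at Klf6 and Klf4 given above, while Klf7 at -180149 bp and Klf13 at -1583 bp newly passed (adjusted p 0.0189 and 0.0484).

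**Figure D5:**
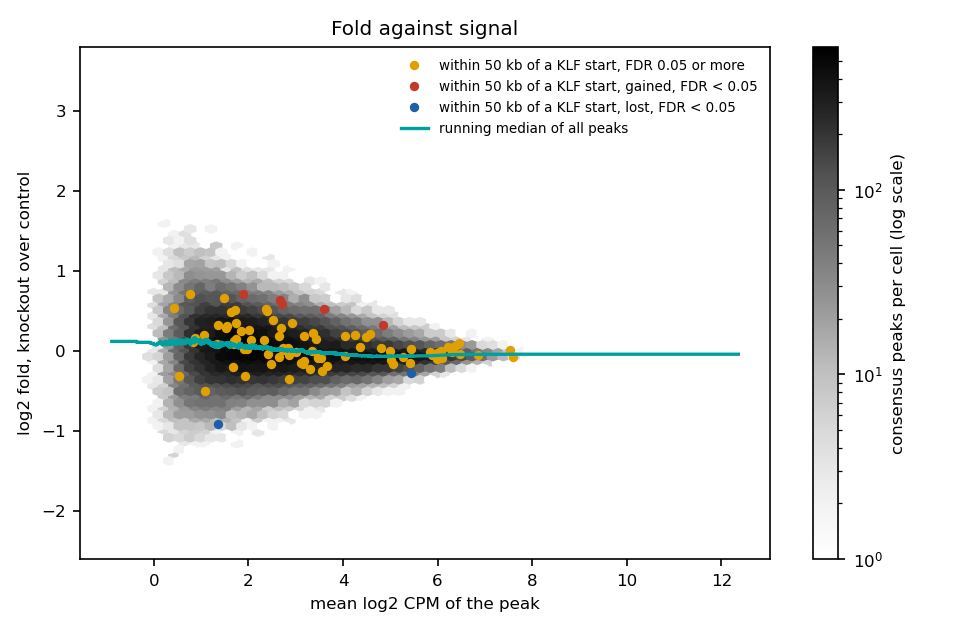
Log2 fold change of the knockout over the control (y axis) against mean log2 CPM (x axis) for all 85925 consensus peaks (grey cells, darker for more peaks) and the 89 peaks within 50 kb of a KLF start site (points). The line is the running median of all peaks, which lies above 0 at low and below 0 at high signal; the KLF points lie around it.

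Called peaks were counted at the other genes around the KLF factors. None of the 7 other KLF genes had one, and 1 of them, Klf15, had an annotated peak, with a fold below 0 and short of the edgeR FDR. Of 9 SP genes, the related GC-box binders, Sp3 had a gained peak (0.46, SE 0.123, edgeR FDR 0.0108, -49520 bp) and Sp2 a lost one (-0.24, SE 0.0731, FDR 0.0285, -1333 bp) (the authors' deposited table). Of 13 cofactor and ubiquitin ligase genes, 7 had an annotated peak, 4 a gained and 0 a lost one by the edgeR FDR. Of their 12 annotated peaks, all at an unadjusted p under 0.05, 5 had a fold below 0. Of the 12, 4 were gained and 0 lost, where 17.6% and 13.1% of all annotated peaks were. The gained peaks were at the corepressor genes Ctbp1 (0.54, SE 0.173, edgeR FDR 0.0378, log2 CPM 2.67) and Ctbp2 (0.90, SE 0.236, FDR 0.00854, log2 CPM 1.82). The others were at the acetyltransferase gene Ep300 (1.22, SE 0.360, FDR 0.0219, log2 CPM 0.82) and the ubiquitin ligase gene Fbxw7 (0.84, SE 0.2499, FDR 0.0232, log2 CPM 1.68) (the authors' deposited table). The median log2 CPM of all consensus peaks was 2.46. Of 10 upstream regulator genes, a list that includes Plagl1 itself, 7 had an annotated peak, 4 a gained and 1 a lost one. Their 16 annotated peaks were evenly split, with 8 folds above and 8 below 0. Of the 16, 4 were gained and 1 lost, where 17.6% and 13.1% of all annotated peaks were. Foxo1 (1.00, SE 0.291, edgeR FDR 0.020, log2 CPM 1.31) and Mef2a (0.33, SE 0.106, FDR 0.0365) were gained. So were the glucocorticoid receptor gene Nr3c1 (0.61, SE 0.187, FDR 0.0293, 110682 bp away) and the TGF-beta receptor gene Tgfbr2 (0.46, SE 0.149, FDR 0.0407). Mef2c (-0.54, SE 0.129, FDR 0.00293) was lost (the authors' deposited table). Of 15 known or proposed KLF targets, 5 had an annotated peak, and 2 had called ones. Pdgfb, a growth factor gene, was gained at 2 peaks (0.62, SE 0.161, and 0.59, SE 0.160). Irx5, the homeobox gene of the study's title, was lost at 2 (-0.44, SE 0.0774, and -0.60, SE 0.194) (the authors' deposited table). Of the 15 annotated peaks of these targets, 2 were gained and 2 lost, and 12 had a fold above 0. Gained peaks were assigned to 5 and lost peaks to 3 of the 10 KLF genes, against 24.5% and 20.6% of all 8173 annotated genes, where KLF genes such as Klf4 had more peaks to count. Macrophage and leukocyte markers moved in the same comparison: 13 of 16 had an annotated peak, 9 a gained one and 0 a lost one, with folds above 0 at all 26 of their annotated peaks, among them the defining gene Ptprc (0.47, edgeR FDR 0.00987) (the authors' deposited table). Of 12 mesenchymal and periosteal markers, 10 had an annotated peak, 0 a gained and 4 a lost one. Their folds were below 0 at 23 of 26 annotated peaks. Counted by peak, 15 of 26 were gained and 0 lost for the macrophage and leukocyte list. For the mesenchymal and periosteal list 0 of 26 were gained and 5 lost. Of all 15221 annotated peaks, 17.6% were gained, 13.1% were lost and 8628 had a fold above 0. Of 6 endothelial markers 4 had an annotated peak. Kdr and Pecam1 each had both a gained and a lost peak, and Erg had lost peaks only. Their part in the KLF values was not tested, and in bulk libraries a shift in cell types and a change within cells cannot be told apart.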

How the data were processed

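ATAC-seq was measured in 2 knockout and 2 control libraries. The authors deposited 2 tables for the whole series: consensus peaks with log2 fold, mean log2 CPM, F score, p-value, FDR and width, computed with edgeR per the file headers, and a subset with gene annotation. Tested on the values, the subset holds the peaks with a p-value under 0.05 whose log2 fold is 0.2 or more in size. Per the submitters' processing notes, the build was mm39 and the tools HOMER, DiffBind 3.16.0, deepTools 3.5.5, SAMtools 1.21, GATK 4.5.5.0, Bowtie2 2.5.4 and Trim Galore 0.6.10. For the peak caller, any shift for the transposase and the library normalization, the answer is not given in the sources used here.

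Start sites were solved from peak centre and deposited distance score. The strand came from several peaks or RefSeq (GRCm38.p6). At Klf5 it was not given, and the solution inside a peak (99536127) was used. The other (99538621) gives the same 3 peaks within 50 kb but lies inside none of them. Standard errors are the size of the log2 fold divided by the root of F, and 95% intervals use 1.96 of them. The alternatives changed the FDR, fold, signal, distance, trend (running median over 2000 peaks) and assumed coefficient of variation. For the trend and the coefficient of variation, p-values came from a chi-square on 1 degree of freedom, Benjamini-Hochberg adjusted over all peaks. The other alternatives kept the deposited FDR. Only the trend test was run on simulated data, with noise drawn from the implied standard errors, so that run could not check those errors. Members and lists were chosen with earlier results of these data known. The text names every called KLF peak and the assigned and consensus peaks nearest to each start site. Others, such as the uncalled Klf6 and Klf9 peaks and the peak pairs at Klf7 and Klf10, were named after their values were seen, and the Klf4 interval and the log2 CPM limit of 5 were chosen then too. Genes of like pattern are not named, because 1 contrast allows no likeness. matplotlib 3.10.9, scipy 1.17.1, pandas 2.3.3 and numpy 2.4.6 under Python 3.11.15 were used.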

Additional observations from a re-analysis of the deposited data

How the results depend on the processing

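No paired analysis was possible because the tables hold no values per library, and for the same reason no library could be left out. The counts of assigned KLF peaks were 6 gained and 4 lost. They were 3 and 1 at an FDR under 0.01, 12 and 4 at an FDR under 0.10, 5 and 2 with a log2 fold of 0.5 or more in size, 7 and 3 with the trend subtracted, 5 and 2 at or above the median signal, 1 and 2 within 25 kb and 3 and 2 within 100 kb. Within 50 kb of a start site they were 5 gained and 2 lost. They were 2 and 1 at an FDR under 0.01, 4 and 1 with the minimum fold, 4 and 1 at or above the median signal and 1 and 2 within 25 kb (60 peaks); 7 and 2 were found both at an FDR under 0.10 and within 100 kb (146 peaks). With an assumed coefficient of variation of 0.1, 0 assigned and 0 near peaks passed in either direction (smallest adjusted p of any KLF peak 0.167). The median log2 fold near start sites, 0.034, was 0.035 with the trend subtracted, -0.010 at or above the median signal, 0.000945 within 25 kb and 0.049 within 100 kb. Subtraction of the trend turned 4 uncalled start site folds above 0: Klf2 (0.028), Klf6 (0.028), Klf9 (0.0036) and Klf10 (0.050). The cause of these moves was not tested. Of the 13 called KLF peaks, 10 stayed called with the trend subtracted and 5 at an FDR under 0.01. The depth per library is unknown.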
